A study of Mus musculus with 16 samples.

Results

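Collagen chains are modified by 3 families of enzymes before and after they leave the cell, and RNA for 10 members of those families was followed in pancreatic stellate cells and sympathetic ganglia that shared a culture medium. The 10 genes were taken by symbol from the protein-coding entries of both deposited expression tables, out of 56941 genes listed in each. They are the lysyl hydroxylases Plod1, Plod2 and Plod3, the prolyl 4-hydroxylase alpha subunits P4ha1 and P4ha2, and the lysyl oxidases Lox, Loxl1, Loxl2, Loxl3 and Loxl4. All 10 had exactly 1 protein-coding entry per table and all 10 entered every test.

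The study asked how pancreatic stellate cells (PSCs) and sympathetic nerves change each other's expression. PSC libraries came from the mPSC1 line, immortalized stellate cells of mouse pancreas, grown alone (PSC, n = 3) or with explants (PSC+SCG, n = 3). Nerve libraries came from explants of superior cervical ganglia (SCG), which hold sympathetic neurons, taken from wild-type C57BL/6J pups aged 1 to 4 days. The ganglia were kept by themselves (SCG, n = 3), beside mouse embryonic fibroblasts of the line NIH 3T3 (SCG+MEF, n = 3), or with mPSC1 cells (SCG+PSC, n = 4). In each coculture 10000 cells sat on an insert in a well with 8 to 13 explants for about 70 hours, so that medium was shared without contact. Each cell line stands for 1 immortalized population, and each well held several explants. The study's methods name several experimental dates as a batch, but no label ties a library to a date. Nothing in the labels says that replicates came from separate cultures or litters, and the p-values then measure only the spread between these libraries, which may be technical.

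Newly made procollagen chains are hydroxylated in the endoplasmic reticulum (ER). Prolyl 4-hydroxylase, a complex of alpha subunits with protein disulfide isomerase, stabilizes the triple helix, and lysyl hydroxylases prepare lysines for sugar attachment and for cross-links. Outside the cell, lysyl oxidases convert lysines of collagen and elastin to aldehydes that join into cross-links, the step that stiffens a fibrotic matrix. The hydroxylases need iron, oxygen and alpha-ketoglutarate, the oxidases need copper, and several of these genes are textbook targets of hypoxia-inducible factor (HIF).

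Between 31900689 and 41632381 reads fell on genes in the 14 libraries whose whole reads could be recovered from the normalized counts. The labelled cell types were visible in their markers. Summed normalized counts of 9 sympathetic neuron markers ran from 84550 to 199521 in the ganglia. In mPSC1 cells, whose table was scaled separately, they ran from 566 to 1004, of which Hand2 alone held 554 to 996, and Slc18a2, the vesicular monoamine transporter, was at 0 in all libraries. The ganglia also held markers of other cells, with 41994 to 60227 summed counts over 6 markers of satellite glia and Schwann cells. Sums ran from 34778 to 41145 over 7 fibroblast markers, of which Pdgfrb alone held 18845 to 27381. Over 5 markers of smooth muscle and pericytes they ran from 14365 to 37460. In mPSC1 cells the 7 fibroblast markers summed to 37688 to 61698, while Emcn and Tie1 of endothelium and Ptprc and Adgre1 of macrophages were at 0. Other genes of those lists were above 0, among them Cd68 at 127 to 217, Csf1r at 51 to 179 and Kdr at 11 to 60. Within the fibroblast list Fap ran from 22 to 44 and Lum from 1 to 33. Since the ganglia are mixtures, fewer cells of a type and less RNA per cell cannot be told apart in these values.

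In mPSC1 cells Lox was the most abundant of the 10 transcripts per length and Loxl2 the least. Lox, the founding lysyl oxidase, stood at 3059 ± 711 normalized counts per kilobase of exon (mean ± SD, n = 3) in PSC. Loxl1, an oxidase known for elastic fibers, followed at 2536 ± 69.5, and the Lox libraries overlapped those of Loxl1. Plod3, the lysyl hydroxylase that also attaches sugars, came next at 2222 ± 94.6 and lay below every Loxl1 library. P4ha1 at 1730 ± 151 and Loxl3 at 1687 ± 113 overlapped each other. Plod2, which hydroxylates the telopeptides at the ends of collagen chains, reached 1146 ± 84.8. P4ha2, the second alpha subunit, at 891 ± 20.6 and Loxl4 at 852 ± 74.8 were not separated, whereas Plod1, which acts on the helix, was lower at 678 ± 48.3. Loxl2, an oxidase of basement membrane and fibrillar collagen, came last at 185 ± 66.0.

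In the ganglia the order was different. Plod3 led in SCG at 2576 ± 314 normalized counts per kilobase (n = 3), then Loxl1 at 1653 ± 649, P4ha1 at 1303 ± 263, Loxl2 at 1107 ± 336 and Plod1 at 1097 ± 156. Plod2 at 856 ± 225, P4ha2 at 772 ± 107, Loxl3 at 732 ± 260 and Lox at 643 ± 319 followed. Loxl4 was far below all others at 56.3 ± 17.5, and it was separated from the next higher enzyme in SCG, SCG+MEF or SCG+PSC. In SCG all other neighbors in this order overlapped, and in SCG+MEF the only other separation was that of Plod3 from Loxl1. In SCG+PSC P4ha1 was second at 1663 ± 233 and Plod3, at 2380 ± 314, lay above it in all 4 libraries. The orders in the ganglia and in mPSC1 cells rest on the exon union as the length of a gene. For P4ha1 that union holds 4992 bases and the canonical transcript 3016, and for P4ha2 the lengths are 3717 and 2279. A shorter length raises the count per kilobase, and the orders were not recomputed with canonical lengths.

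**Figure D1:**
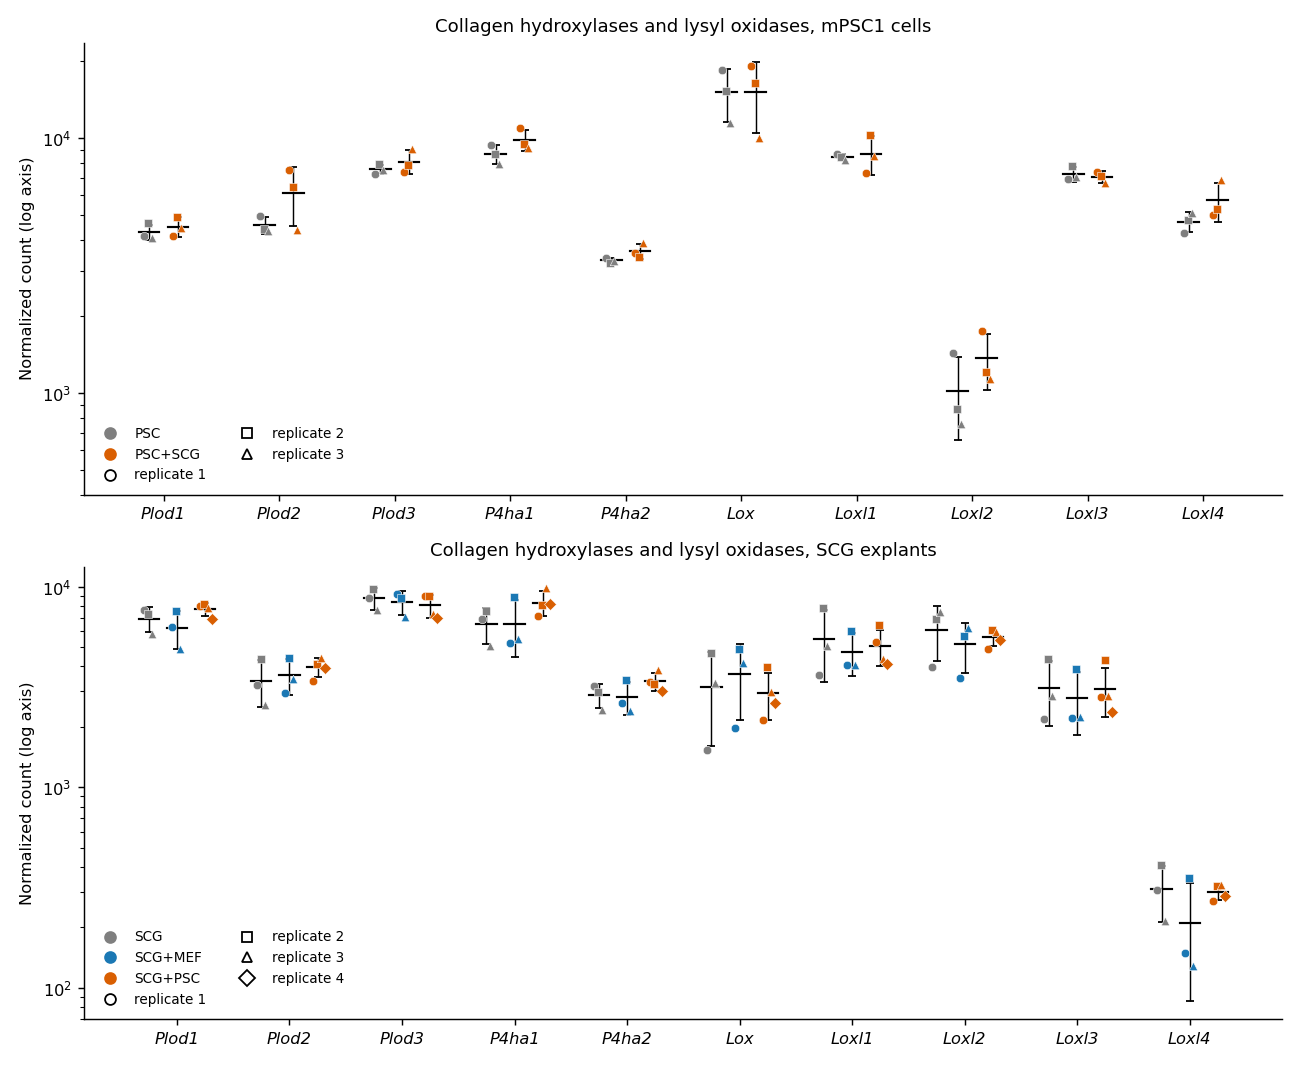
Normalized counts (log axis) of the 10 enzymes in each library of mPSC1 cells (top) and of SCG explants (bottom), with colors for groups, symbols for replicate numbers, a bar at the mean and whiskers of 1 SD. Lox spans 9993 to 19170 in mPSC1 cells with both groups intermixed, and Loxl4 lies between 129 and 408 in all ganglion libraries.

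The 2 tables were normalized separately, so levels were not compared between them, but the share of each enzyme within its family does not depend on the scaling of a library. Here a share is the count per kilobase as a percent of the family total. Among lysyl hydroxylases, Plod3 made up 54.9 ± 1.71% in PSC and 57.0 ± 1.65% in SCG. Plod2 contributed 28.3 ± 2.22% in PSC and 18.7 ± 2.33% in SCG, and Plod1 16.8 ± 0.76% and 24.3 ± 1.90%. The lowest Plod1 share in any ganglion library was 20.8% and the highest in any mPSC1 library was 17.6%.

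The makeup of the lysyl oxidase family differed between mPSC1 cells and ganglia in every library for Lox, Loxl2 and Loxl4. Loxl2 held 2.19 ± 0.60% of the family in PSC and 2.88 ± 0.59% in PSC+SCG, against 27.0 ± 4.83% in SCG, 24.8 ± 4.72% in SCG+MEF and 26.3 ± 3.37% in SCG+PSC. Loxl4 showed the opposite distribution, with 10.4 ± 1.86% in PSC and 12.2 ± 3.57% in PSC+SCG but 1.44 ± 0.59%, 0.97 ± 0.36% and 1.42 ± 0.19% in the 3 ganglion groups. Lox itself made up 36.5 ± 5.29% in PSC and 14.7 ± 2.72% in SCG. The shares of Loxl1, from 24.3% to 43.8% over all libraries, and of Loxl3, from 13.8% to 21.8%, overlapped between the 2 sources. These differences between sources are given without a test, since source and table cannot be told apart.

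With P4ha3 counted as the third alpha subunit, P4ha1 made up 53.0 ± 2.81% of the prolyl 4-hydroxylase alpha subunits in PSC and 54.7 ± 2.93% in SCG. P4ha2 made up 27.4 ± 1.54% and 32.7 ± 3.10%. P4ha1 thus led P4ha2 in both sources, and within a source the shares of both overlapped between cultures alone and cocultures.

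**Figure D2:**
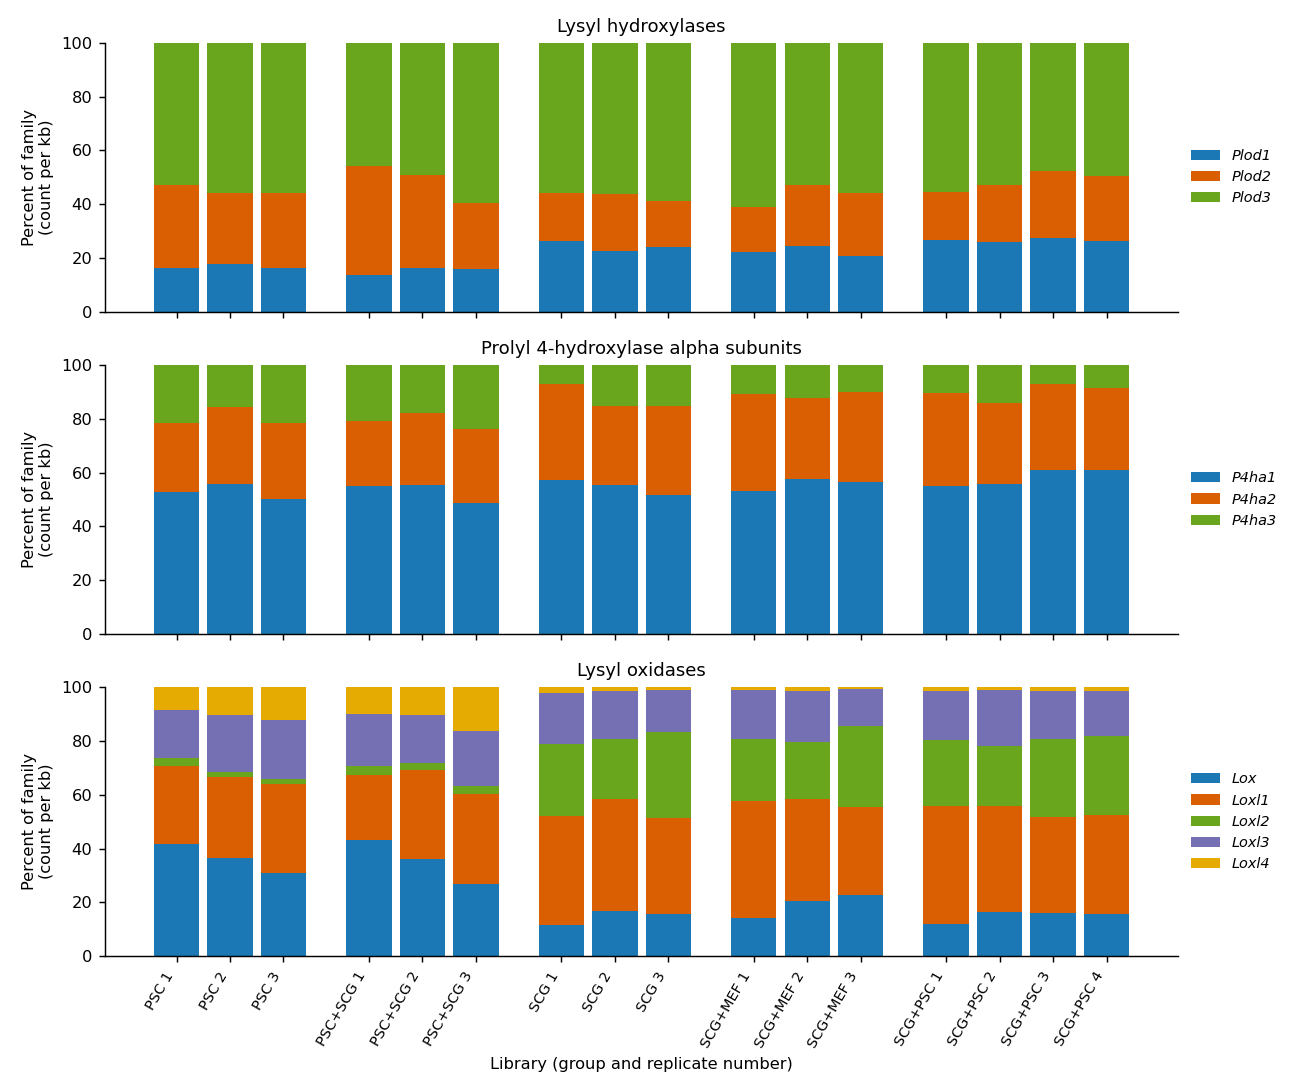
Share of each enzyme in its family (percent of the summed normalized count per kilobase of exon), as 1 stacked bar for each of the 16 libraries. Loxl2 takes 1.83% to 3.53% of the oxidases in mPSC1 libraries and 21.5% to 31.8% in ganglion libraries, and Loxl4 8.59% to 16.4% and 0.62% to 2.08%.

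Whether ganglia change these enzymes in PSCs was asked by comparing PSC+SCG with PSC. None of the 10 passed in limma on log2(normalized count + 1), where a call needed an adjusted p no higher than 0.05 and a log2 difference of 0.5 or more either way. In this and the 3 nerve comparisons the smallest adjusted p of a member without a block was 0.9998. The background was also empty, with 0% of 14540 protein-coding genes called in this fit and 0.523% with the replicate number as a block. None of the 10 was called with that block, in edgeR or in DESeq2. The edgeR and DESeq2 fits lacked PSC+SCG replicate 1, whose reads did not count as recovered and in which Plod2 was highest. With the block, only pairs 2 and 3 carried these fits. At an unadjusted p under 0.05 there were 0 members (background 1.41%) without the block and 3 with it, Plod2, Loxl2 and Loxl4 (background 6.09%).

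Plod2 was measured at 4930, 4388 and 4315 normalized counts in PSC replicates 1 to 3 and at 7497, 6454 and 4374 in PSC+SCG. Coculture replicates 1 and 2 were above every PSC library and replicate 3 was among them. Its log2 fold change was 0.39 ± 0.19 (SE) or 1.31-fold. By pair it was 0.60 and 0.56 in pairs 1 and 2 and 0.02 in pair 3. With the replicate block the adjusted p was 0.135. When replicates 3 were set apart, so that only pairs 1 and 2 carried the comparison, Plod2 had a log2 fold change of 0.58 and an adjusted p of 0.000741 and was then the 1 member called, in a background of 1.12%. That setting was chosen with earlier results of these data known and takes out the pair in which Plod2 differed least, so the call rests on pairs 1 and 2 alone. The study reported Plod2 among genes significantly higher in PSCs with ganglia, at the thresholds used here and with the experimental date as a covariate. That gene list came from these same libraries, so the direction of Plod2 here is not independent evidence.

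Loxl2 had the largest fold change of the 10. Its counts were 1434, 864 and 756 in PSC and 1756, 1214 and 1139 in PSC+SCG, so each coculture library exceeded its same-numbered partner while the groups overlapped. The log2 fold change was 0.46 ± 0.26, with a 95% confidence interval from -0.13 to 1.05, and the blocked adjusted p was 0.0701. Loxl4, an oxidase related to Loxl2, was measured at 4262, 4751 and 5080 in PSC and at 5004, 5254 and 6825 in PSC+SCG. This is a log2 fold change of 0.27 ± 0.15, again higher in 3 of 3 pairs, with a blocked adjusted p of 0.342.

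The prolyl 4-hydroxylase subunits differed less. P4ha1 had counts of 9397, 8617 and 7891 in PSC and 10923, 9434 and 9124 in PSC+SCG (log2 fold change 0.19 ± 0.13). P4ha2 had 3396, 3247 and 3290 against 3527, 3415 and 3865 (0.12 ± 0.11). P4ha2 was the 1 of 10 enzymes whose groups did not overlap, where 2.9% of all protein-coding genes were higher without overlap and 4.37% did not overlap in either direction. Its interval, from -0.13 to 0.37, ended below the fold threshold.

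Lox was the clearest case of libraries that followed their replicate number. Its counts of 18488, 15274 and 11486 in PSC were matched by 19170, 16466 and 9993 in PSC+SCG. The log2 fold change was -0.01 ± 0.26, and the replicate number accounted for 96.2% of the variance of the log2 values while the group accounted for 0.04%. For the median protein-coding gene with a mean count of at least 100 these shares were 71.8% and 4.77%. Loxl1 ranged from 8226 to 8687 in PSC and from 7290 to 10259 in PSC+SCG, and Loxl3 from 6906 to 7790 and from 6644 to 7377. Their log2 fold changes were 0.03 and -0.04. Plod1 at 0.07 and Plod3 at 0.10 were as close to 0, and the intervals of Plod1, Plod3, P4ha1, P4ha2, Loxl1 and Loxl3 all stayed within 0.5 of 0 in both directions. The intervals of Plod2, Lox, Loxl2 and Loxl4 did not.

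As a list, 8 of the 10 enzymes had a positive log2 fold change, beside 53.2% of all protein-coding genes tested. The median was 0.11 against 0.01 for all those genes. In every same-numbered pair 5 of the 10 were higher, Plod2, P4ha1, P4ha2, Loxl2 and Loxl4, while 13.6% of all genes were. The summed fibroblast markers were 50873, 43975 and 39902 in PSC and 61698, 59823 and 37688 in PSC+SCG. Over the 6 libraries Plod2 correlated with that sum at r = 0.93, Lox at 0.88 and P4ha1 at 0.77, points that share library and culture. The part of this sum in the Plod2 result was not tested.

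**Figure D3:**
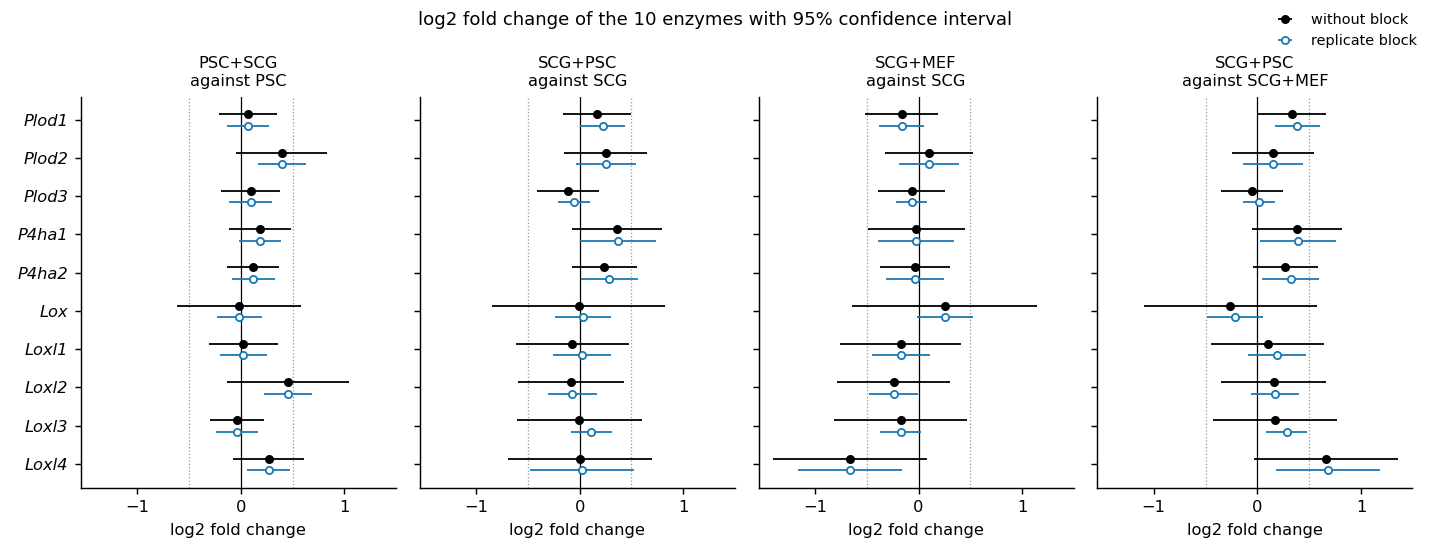
log2 fold change of each enzyme in the 4 comparisons, filled without a block and open with the replicate number as a block, with 95% confidence intervals and dotted lines at 0.5 in either direction. The widest interval without a block is that of Lox in SCG+MEF against SCG, from -0.64 to 1.15, and blocking shortens it.

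In the ganglia the question was whether mPSC1 cells change the enzymes, with NIH 3T3 cells as the control fibroblast. None of the 10 was called in SCG+PSC against SCG, where 0.0501% of 15983 protein-coding genes were called without the block and 1.93% with it. None was called in SCG+MEF against SCG (0.0188% and 0.238%) or in SCG+PSC against SCG+MEF (0% and 1.14%). edgeR and DESeq2, run without SCG+PSC replicate 4, called none of the 10 either. At an unadjusted p under 0.05 the members numbered 0, 0 and 1 in these 3 comparisons, with backgrounds of 5.57%, 2.72% and 3.93%. With the block they numbered 3, 2 and 5, with backgrounds of 13.2%, 8.09% and 14.7%. The comparisons share libraries, and in the blocked fit SCG+PSC replicate 4, alone in its block, does not enter the estimate.

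P4ha1 had the largest difference between SCG+PSC and SCG. Its counts were 6915, 7564 and 5033 in SCG, 5218, 8857 and 5452 in SCG+MEF, and 7095, 8073, 9888 and 8148 in SCG+PSC. The lowest SCG+PSC library lay above 2 of 3 SCG and 2 of 3 SCG+MEF libraries. The log2 fold change was 0.36 ± 0.20 against SCG and 0.38 ± 0.20 against SCG+MEF, with blocked adjusted p of 0.470 and 0.389, and -0.02 ± 0.21 for SCG+MEF against SCG. Pair 3 gave 0.97 against SCG, while pairs 1 and 2 gave 0.04 and 0.09.

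P4ha2 varied with P4ha1 over the 10 nerve libraries, but the order of the libraries within each group differed between them. It stood at 3189, 2997 and 2424 in SCG, at 2636, 3414 and 2398 in SCG+MEF and at 3341, 3263, 3856 and 3017 in SCG+PSC. Its log2 fold changes were 0.24 ± 0.14 against SCG and 0.27 ± 0.14 against SCG+MEF, neither called. Over the 10 nerve libraries the 2 subunits correlated at r = 0.92, the highest value among pairs of hydroxylases, with libraries of all groups in the points. In the 6 mPSC1 libraries the same correlation was 0.40.

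Because these 2 subunit genes had like patterns in the ganglia, the 250 bases before the start of each canonical transcript are shown on the gene's strand (GRCm39, GENCODE M39). Capitals mark the HIF core motif in its forms ACGTG and GCGTG or their reverse complements CACGT and CACGC. Both windows lie on the plus strand, that of P4ha1 at chr10:59158842-59159091 and that of P4ha2 at chr11:53991500-53991749, and neither holds an exon of a transcript tagged basic. The P4ha2 window lies inside the gene, since other transcripts of it start upstream.
P4ha1: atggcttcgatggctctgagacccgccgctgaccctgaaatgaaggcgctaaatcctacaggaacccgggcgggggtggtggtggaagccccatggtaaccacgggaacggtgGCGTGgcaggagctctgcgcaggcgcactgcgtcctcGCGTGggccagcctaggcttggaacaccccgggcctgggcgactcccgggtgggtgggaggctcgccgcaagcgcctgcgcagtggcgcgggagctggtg
P4ha2: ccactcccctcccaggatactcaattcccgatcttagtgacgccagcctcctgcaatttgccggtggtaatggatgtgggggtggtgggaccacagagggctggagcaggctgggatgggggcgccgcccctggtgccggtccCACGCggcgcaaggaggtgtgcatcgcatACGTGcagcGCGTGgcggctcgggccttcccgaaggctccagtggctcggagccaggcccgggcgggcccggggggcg
P4ha1 holds 2 matches to GCGTG, and P4ha2 holds 2 to GCGTG and 1 to ACGTG. Over the same window of 21621 protein-coding genes, 31.2% hold GCGTG, 17.0% hold ACGTG and 41.3% hold at least 1 of them, on either strand. ACGTG is contained in the E-box CACGTG, which 6.28% of the windows hold and which none of the 10 enzyme genes holds. Among the others Plod2 had 4 matches, Plod3 4, Lox 3, Loxl3 2, Plod1 1 and Loxl4 1, and Loxl1 and Loxl2 had none. Loxl1 and Loxl3, whose windows are not shown, correlated at r = 0.96 in the nerve libraries, above the 0.92 of P4ha1 and P4ha2. Exons of B430319G15Rik covered all 250 bases of the Plod2 window, and exons of Znhit1 covered 170 of the Plod3 window. Own exons covered 74 bases of the Lox window and 54 of the Loxl2 window. The 10 windows held 55.2% to 75.2% GC, and the counts of matches were not adjusted for it. A match is a run of letters and does not show that a factor binds there.

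The P4ha1 gene lies at chr10:59159092-59209126 and P4ha2 at chr11:53981553-54022494, both on the plus strand. Plod1 (chr4:147991574-148021356, minus strand), Plod2 (chr9:92424119-92490494, plus) and Plod3 (chr5:137015827-137025502, plus) lie on separate chromosomes. So do Lox (chr18:52649136-52663110, minus), Loxl2 (chr14:69846209-69933283, plus), Loxl3 (chr6:83011152-83029543, plus) and Loxl4 (chr19:42580711-42601252, minus), while Loxl1 (chr9:58195014-58220495, minus) shares chromosome 9 with Plod2. At most 0.265% of the exon bases of any of them, in Plod3, lay in another gene of the same strand.

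Plod1 was the 1 enzyme with an unadjusted p under 0.05 without the block, in SCG+PSC against SCG+MEF. Its counts were 7653, 7280 and 5798 in SCG, 6256, 7572 and 4868 in SCG+MEF, and 7995, 8183, 7851 and 6886 in SCG+PSC. In each of the 3 numbered pairs SCG+PSC was the higher library against SCG and against SCG+MEF. Against SCG+MEF its log2 fold change was 0.33 ± 0.15, with a 95% interval from 0.0021 to 0.66. The blocked adjusted p was 0.114 in limma and 0.0183 in DESeq2 on recovered reads, but the log2 fold change there, 0.38, stayed under the 0.5 required of a call. Against SCG the value was 0.17 ± 0.15.

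Plod2 had counts of 3249, 4349 and 2582 in SCG, 2940, 4400 and 3474 in SCG+MEF and 3390, 4120, 4418 and 3924 in SCG+PSC. The groups overlapped, and its log2 fold changes were 0.25 ± 0.18 against SCG, 0.15 ± 0.18 against SCG+MEF and 0.10 ± 0.19 for SCG+MEF against SCG. Plod3 ranged from 7646 to 9776 in SCG, from 7033 to 9207 in SCG+MEF and from 6980 to 9020 in SCG+PSC. Its log2 fold changes of -0.12, -0.05 and -0.07 all lay near 0, and all 3 intervals stayed within 0.5 of 0.

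Loxl4 was the oxidase that differed most by group and also the one with the fewest counts. It was measured at 308, 408 and 215 in SCG, at 149, 353 and 129 in SCG+MEF and at 270, 320, 327 and 288 in SCG+PSC. SCG+MEF replicates 1 and 3 were below every other ganglion library, and SCG+MEF replicate 2 was above all SCG+PSC libraries. Its log2 fold change was -0.66 ± 0.34 for SCG+MEF against SCG and 0.66 ± 0.32 for SCG+PSC against SCG+MEF, the largest in size among the 10, and 0.00 ± 0.32 for SCG+PSC against SCG. With the block the adjusted p was 0.508, 0.242 and 0.990.

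Lox, Loxl1, Loxl2 and Loxl3 varied more between replicate numbers than between cultures. Lox had counts of 1541, 4675 and 3301 in SCG, 1975, 4870 and 4183 in SCG+MEF and 2159, 3974, 2980 and 2614 in SCG+PSC. Replicate 1 was the lowest library in all 3 groups, and replicate 2 the highest. Loxl1 showed its highest count in replicate 2 of each group, 7857 in SCG, 6035 in SCG+MEF and 6453 in SCG+PSC. Loxl3 did the same, at 4367, 3882 and 4322. Loxl2 was lowest in replicate 1 of each group, at 3990, 3501 and 4912. Over replicates 1 to 3, the number accounted for 89.3% of the variance of Lox, 85.7% of Loxl3, 78.7% of Loxl2, 73.6% of Loxl1 and 89.2% of Plod3, with a median of 61.5% over all genes. The group accounted for at most 9.33% in these 5. For P4ha1, P4ha2 and Plod1 the group took the larger share, 30.2%, 41.8% and 43.0%, against a median of 13.5% over all genes.

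Without the block the intervals of these oxidases were wide. For SCG+PSC against SCG they were -0.01 ± 0.38 for Lox, -0.07 ± 0.25 for Loxl1, -0.08 ± 0.23 for Loxl2 and -0.00 ± 0.27 for Loxl3, and the intervals of Lox and Loxl3 reached past 0.5 in both directions. With the block the values were 0.03 ± 0.12, 0.02 ± 0.13, -0.07 ± 0.11 and 0.11 ± 0.09. For SCG+MEF against SCG the unblocked values were 0.25, -0.17, -0.24 and -0.17, and for SCG+PSC against SCG+MEF they were -0.26, 0.10, 0.16 and 0.17.

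**Figure D4:**
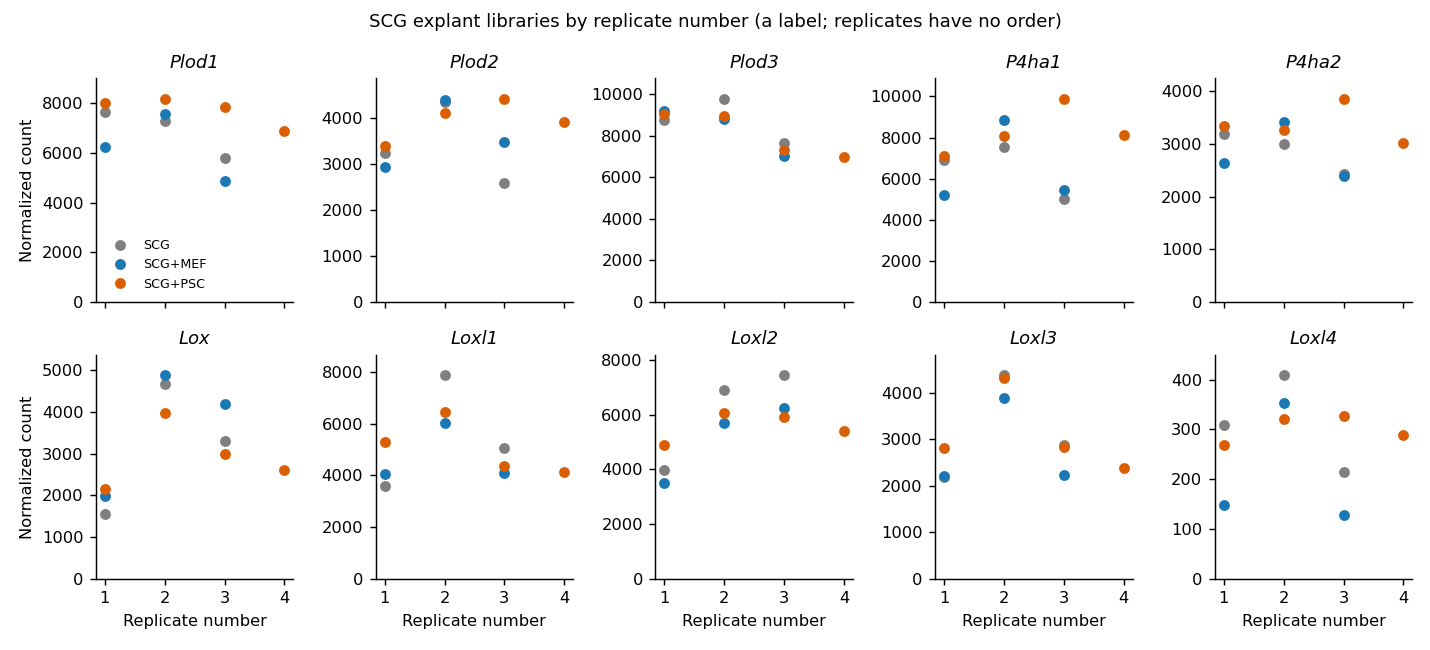
Normalized counts of the 10 enzymes in the nerve libraries against the replicate number, with colors for SCG, SCG+MEF and SCG+PSC. Lox, Loxl1 and Loxl3 peak at number 2 in all 3 groups, at 3974 to 4870 for Lox, while P4ha1 and P4ha2 at number 3 stand at 9888 and 3856 in SCG+PSC, above the other groups.

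As a list, 5 of the 10 enzymes had a positive log2 fold change in SCG+PSC against SCG, beside 52.2% of all genes. The median was -0.00 against 0.01 over all genes. In SCG+MEF against SCG 2 of 10 were positive, beside 59.2%, with a median of -0.11 against 0.03. In SCG+PSC against SCG+MEF 8 of 10 were, beside 44.8%, with a median of 0.16 against -0.02. With the block 8, 2 and 9 of the 10 were positive in these 3 comparisons, beside 8305, 9469 and 7290 of 15983 genes. The blocked medians were 0.07, -0.11 and 0.24, beside 0.01, 0.03 and -0.02 over all genes. No enzyme separated any 2 nerve groups without overlap, where 5.11%, 5% and 4.6% of all genes did. In all numbered pairs Plod1, P4ha1 and P4ha2 were higher in SCG+PSC than in SCG, 3 of 10 beside 20.1% of all genes. Against SCG+MEF 3 of 10 were higher in all pairs, beside 16.7%. For SCG+MEF against SCG 1 of 10 was higher in all pairs and 2 of 10, Loxl2 and Loxl4, were lower, beside 17.3% and 10.2%.

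Cell type markers also varied between the nerve libraries. The summed sympathetic neuron markers were lowest in replicate 2 of each group, at 84550 in SCG, 126448 in SCG+MEF and 100123 in SCG+PSC. Their log2 sum correlated over the 10 libraries with Plod3 at r = -0.80 and with Loxl1 and Loxl3 at -0.78. Summed markers of satellite glia and Schwann cells correlated with Plod3 at 0.82. Summed smooth muscle and pericyte markers correlated with Loxl2 at 0.76 and with Lox at 0.66, and macrophage markers with Loxl2 at -0.91. The smooth muscle and pericyte sum had medians of 35607 in SCG, 28461 in SCG+MEF and 19297 in SCG+PSC, with overlapping ranges. The part of cell makeup in the values of the enzymes was not tested.

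The other genes of the pathway showed as few calls. Of 17 further enzymes and chaperones of the ER, of 14 proteinases and cofactors outside the cell and of 12 substrates, none passed the threshold in any of the 4 comparisons without the block. In PSC+SCG against PSC 16 of the ER genes were tested and 15 were positive, beside 53.2% of all genes. The median log2 fold change of the 16 was 0.09. P4hb, the disulfide isomerase that completes prolyl 4-hydroxylase, is given here as the partner of P4ha1 and P4ha2 and had 57378 ± 1591 normalized counts in PSC+SCG and 54116 ± 898 in PSC. Of the 13 extracellular genes tested there 9 were positive, with a median of 0.18, and of the 12 substrates 8, with a median of 0.10. Of the 3 largest differences without overlap, 1 was that of Fn1, encoding fibronectin, at 236072 ± 23170 against 177812 ± 22562, and 1 that of the procollagen proteinase Adamts3, at 97.6 ± 5.94 against 75.6 ± 12.1. The other was that of Pfkfb3, a glycolytic regulator of the HIF list, which stood at 1412 ± 103 against 1007 ± 153 and had a blocked adjusted p of 0.0457 and missed the fold threshold only in the third decimal. With replicates 3 apart it was called, at a log2 fold change of 0.55 and an adjusted p of 0.0103.

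Adamts14, another procollagen proteinase, had the largest difference of the listed genes whose ganglion groups did not overlap, in SCG+PSC against SCG. It had 812 ± 192 normalized counts in SCG+PSC (n = 4), 526 ± 61.7 in SCG and 556 ± 65.5 in SCG+MEF. Against SCG its log2 fold change was 0.60 ± 0.18 with an adjusted p of 0.816, and 0.74 ± 0.10 with an adjusted p of 0.00600 under the replicate block, which called it. DESeq2 also called it without the block, at 0.75 and an adjusted p of 0.0253. Against SCG+MEF the blocked value was 0.66 ± 0.10 with an adjusted p of 0.0213, also called. The blocked fit called 1 more listed gene, the fibrillar collagen Col11a1, in SCG+PSC against SCG+MEF (0.51 ± 0.09, adjusted p = 0.0283), a gene named here after its values were seen. Tmem38b, an ER channel needed for collagen synthesis, was lower without overlap in SCG+PSC, at 225 ± 14.4 against 330 ± 26.8 in SCG and 299 ± 30.3 in SCG+MEF. Its blocked adjusted p was 0.0808 and 0.239, and 0.0384 against SCG in DESeq2 with the block, which called it. The prolyl 3-hydroxylase P3h2 was at 1587 ± 181 in SCG+PSC, 1790 ± 23.8 in SCG+MEF and 2112 ± 297 in SCG, with blocked adjusted p from 0.0985 to 0.626, and Postn, encoding periostin, was at 125074 ± 4026 in SCG+PSC and 115153 ± 2767 in SCG+MEF.

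Genes known as HIF targets were listed because the hydroxylases are among the textbook targets of that factor, and the list of 25 holds none of the 10 enzymes. In SCG+PSC against SCG 23 of 25 had a positive log2 fold change, beside 52.2% of all genes. Their median was 0.38, beside 0.01 over all genes. The median was 0.40 against SCG+MEF, beside -0.02, and -0.00 for SCG+MEF against SCG, beside 0.03. By pair, the median against SCG was -0.05, 0.24 and 0.86 in pairs 1 to 3, and against SCG+MEF it was 0.335, -0.143 and 0.9996. Each comparison thus had 1 pair below 0, and pair 3 was the highest in both. No gene of the list was called in any comparison, with or without the replicate block, and Pfkfb3 was called only with replicates 3 apart. Eno1, a glycolytic enzyme, separated SCG+PSC from SCG without overlap, at 33575 ± 4022 against 25196 ± 4060, and its blocked adjusted p was 0.354.

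The library medians of this list, relative to the mean of SCG, were 0.23, -0.04 and -0.20 in SCG, -0.10, 0.44 and -0.21 in SCG+MEF and 0.19, 0.25, 0.67 and 0.38 in SCG+PSC. The groups overlapped, and SCG+MEF replicate 2 exceeded 3 of 4 SCG+PSC libraries. P4ha1 was highest in the library with the highest list median in SCG+MEF and in SCG+PSC, but not in SCG. In PSC+SCG against PSC the median of the list was 0.08 beside 0.01.

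**Figure D5:**
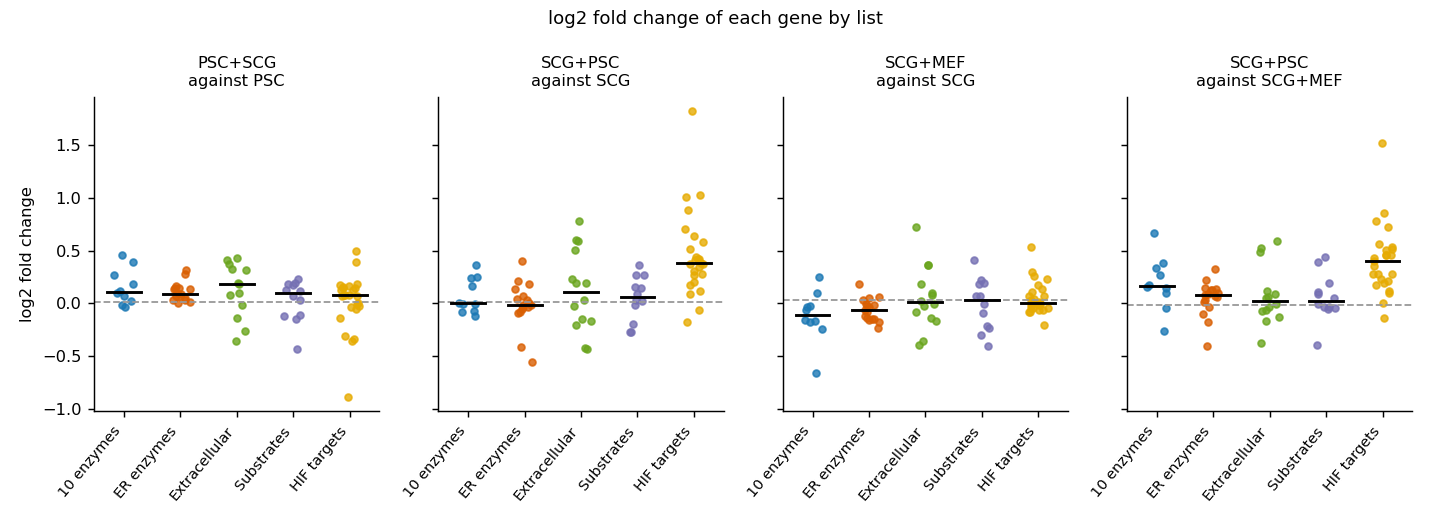
log2 fold change of every tested gene by list (points) in the 4 comparisons, with a bar at the list median and a dashed line at the median of all protein-coding genes. HIF targets have medians of 0.38 and 0.40 in the comparisons of SCG+PSC and of -0.00 in SCG+MEF against SCG.

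Within the nerve table, correlation over the 10 libraries set the enzymes into sets of like patterns. Loxl1 and Loxl3 correlated at r = 0.96 and Lox and Loxl2 at 0.80. P4ha2 correlated with Plod1 at 0.90 and P4ha1 with Plod2 at 0.89, whereas Plod3 reached at most 0.55, with Loxl1. In the 6 mPSC1 libraries the pairs differed, with 0.96 between P4ha1 and Loxl2, 0.90 between Plod3 and Loxl4 and -0.04 between Lox and Loxl1. These values describe libraries that share replicate numbers and groups, and carry no test.

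Among 12134 other protein-coding genes with a mean count of at least 100, the closest to P4ha2 in the nerve libraries were Sdf2l1 (r = 0.98), Eno1 (0.96) and Ldha (0.94). P4ha1 was closest to Bhlhe40 (0.98), Zfyve21 (0.96) and Tfpi2 (0.95). Plod1 was closest to Gadd45g, Pkm and Sh3rf1, at 0.96 to 0.98, and Plod2 to Pdia3, Hsp90b1 and Bbs12, all at 0.96. Plod3 had Rgl3, Samd4b and Ccdc142, all at 0.98. Among the oxidases, Lox was closest to Msrb3 (0.98), F3 and Steap2, Loxl1 to Klf4 (0.97), P3h1 and P4ha3, and Loxl2 to Aldh1l2 (0.97), Phgdh and Ado. Loxl3 had Rin1, Myh9 and Smad6, all at 0.98, and Loxl4 had Lrrtm1 (0.95), Rgcc and Limch1. In mPSC1 cells the 30 closest genes had r from 0.972 to 0.999 over 6 libraries among 11080 genes, and Lox was closest to Cryzl2, Nit1 and Adamts1.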

How the data were processed

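RNA of 16 libraries was sequenced in bulk. The authors used STAR 2.7.10b to align to GRCm39 and to count stranded reads of each gene (GENCODE M33, basic). DESeq2 1.38.3 size factors (R 4.2.2) then scaled the libraries, apart for the PSC and nerve tables. The deposited values are therefore a signal, normalized counts of 56941 genes. Of the values, 100% were whole multiples of a library's smallest step within 0.01, but the step lies so near 1 in the first PSC+SCG and the fourth SCG+PSC library that reads count as recovered in 14 of 16 libraries only.

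Log2(normalized count + 1) of genes with a sum of at least 10 was tested with limma 3.58.1 (trend) in R 4.3.3, with all 10 nerve libraries in 1 fit, and p-values were adjusted by Benjamini-Hochberg over all genes tested. Background counts cover protein-coding genes. The study's model held the experimental date, which no label ties to a library. Deviations of same-numbered libraries from their group means correlated in every pair (0.54 to 0.84 in the PSC table, 0.38 to 0.80 in the nerve table), so the number was taken as a pairing and used as a block in a second fit. Some differently numbered libraries correlated as well, at 0.39 for PSC 1 with PSC+SCG 2 and 0.18 for PSC 2 with PSC+SCG 1. In the nerve table SCG 1 did so with SCG+PSC 3 at 0.15, and SCG+PSC 4 with SCG 3 at 0.37. SCG+PSC 4 also correlated with SCG+MEF 3 at 0.49, above the 0.38 of SCG+MEF 3 with the same-numbered SCG+PSC 3. On recovered reads, the alternatives edgeR 4.0.16 (TMM) and DESeq2 1.42.0 called 0 and 2 protein-coding genes for mPSC1 cells. For the ganglia they called 3 and 55 (SCG+PSC and SCG), 3 and 21 (SCG+MEF and SCG), and 0 and 18 (SCG+PSC and SCG+MEF). Further alternatives were pseudocounts, filters, quantile normalization, no trend, fewer libraries and a threshold on adjusted p alone. The tests without a block were checked on simulated counts for PSC+SCG against PSC and for SCG+PSC against SCG. Those counts held no effect of the replicate number, and their set changes were larger than that of any enzyme here. The check therefore does not cover the blocked fits or changes of the size seen here.

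Levels per kilobase used the exon union of basic transcripts in GENCODE M39, a later release than the authors'. Aldoa has 2 protein-coding rows, and the larger was kept. The members, the pathway and marker lists and the tests were chosen with earlier results of these data known. Besides the members, each comparison names up to 5 listed genes with the largest change among those past the threshold, or else up to 3 whose groups do not overlap. The 3 most like genes were taken by Pearson correlation.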

Additional observations from a re-analysis of the deposited data

How the results depend on the processing

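With the replicate number as a block, calls over all protein-coding genes went from 0 to 76 for PSC+SCG and PSC, from 8 to 308 for SCG+PSC and SCG, from 3 to 38 for SCG+MEF and SCG, and from 0 to 182 for SCG+PSC and SCG+MEF. edgeR with the block called 37, 323, 36 and 206, and DESeq2 with it 44, 415, 105 and 365. The number of enzymes past the threshold stayed at 0 under every alternative run except 1, the block with replicates 3 apart, where it was 1 (Plod2). The pairing changed no other call of an enzyme.

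Of 1013 recomputed log2 fold changes of the enzymes and named pathway genes, 934 kept their direction and side of the threshold, 7 passed it newly and 72 changed sign. No main value that changed sign was larger than 0.25 in size, and the cause of the changes was not tested. For PSC+SCG against PSC, Lox was 0.080 with replicates 3 apart and Loxl1 -0.012 after quantile normalization. For SCG+PSC against SCG, Lox was 0.035 both with the block and with SCG+PSC replicates 1 to 3 only, 0.037 in edgeR with the block and 0.036 in DESeq2 with it. Loxl1 in the same settings was 0.019, 0.019, 0.015 and 0.013. Loxl3 was 0.11 in all 4 of them, 0.085 in edgeR and 0.083 in DESeq2 without the block, and 0.0034 after quantile normalization. Loxl4 was -0.064 after quantile normalization, -0.025 in edgeR and -0.023 in DESeq2. For SCG+MEF against SCG, P4ha1 was 0.00071 in edgeR and 0.0014 in DESeq2. For SCG+PSC against SCG+MEF, Plod3 was 0.018 with the block and with replicates 1 to 3 only, 0.017 in edgeR, 0.019 in edgeR with the block, 0.014 in DESeq2 and 0.017 in DESeq2 with the block.

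Leaving out 1 library at a time gave these ranges for the values that changed sign. For PSC+SCG against PSC they ran from -0.21 to 0.26 for Lox, from -0.10 to 0.14 for Loxl1 and from -0.071 to 0.017 for Loxl3. For SCG+PSC against SCG they ran from -0.46 to 0.34 for Lox, from -0.34 to 0.22 for Loxl1, from -0.36 to 0.085 for Loxl2, from -0.23 to 0.27 for Loxl3 and from -0.24 to 0.22 for Loxl4. For SCG+MEF against SCG they ran from -0.31 to 0.0045 for Plod1, from -0.080 to 0.30 for Plod2, from -0.16 to 0.051 for Plod3, from -0.26 to 0.12 for P4ha1, from -0.18 to 0.073 for P4ha2, from -0.20 to 0.65 for Lox, from -0.44 to 0.12 for Loxl1, from -0.52 to 0.016 for Loxl2 and from -0.44 to 0.097 for Loxl3. For SCG+PSC against SCG+MEF they ran from -0.17 to 0.027 for Plod3, from -0.024 to 0.29 for Loxl1, from -0.10 to 0.32 for Loxl2 and from -0.0048 to 0.44 for Loxl3. 

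Shares within a family moved by more than their SD in 5 of 55 values with the length of the canonical transcript, an alternative chosen after seeing the data, and in 35 of 55 with counts not divided by length.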
